A study of Homo sapiens with 12 samples.

Results

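In all, 10 genes of the machinery that binds IgG were followed in tumor-associated macrophages (TAMs) that were cultured with or without an added antibody. They were taken by gene name, with earlier results of these data known, as the receptors FCGR1A, FCGR1B, FCGR2A, FCGR2B, FCGR2C, FCGR3A and FCGR3B, the signaling adaptor FCER1G, the neonatal Fc receptor FCGRT and the kinase SYK, which makes 10 of the 58735 genes in the deposited table. The TAMs were THP-1 cells, an established human monocytic leukemia line. The study's methods describe them as differentiated with the phorbol ester PMA, and a figure legend names AsPC-1 pancreatic cancer cells as the coculture partner. In the control group the cancer cells carried an empty vector, and in the OE-MMP28 group they overexpressed the metalloproteinase MMP28. In the other groups a neutralizing antibody against IL-8 (OE-MMP28 + anti-IL-8) or against VEGFA (OE-MMP28 + anti-VEGFA) was added on top of OE-MMP28. The study states no dose for the sequenced cultures, and in its conditioned-medium assays it used a higher concentration of anti-IL-8 than of anti-VEGFA. If the doses differed here too, amount of antibody and its target cannot be told apart between the antibody groups. Each of the 4 groups held 3 libraries. No sequenced group is labelled as having received a control IgG, so an effect of added antibody as such and an effect of removing IL-8 or VEGFA cannot be told apart within either antibody group. Both antibody groups are therefore set beside the same OE-MMP28 libraries, singly and together. Nothing in the labels says that the libraries of a group came from separate cultures, so the p-values measure only the spread between these libraries, which may be technical.

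Fc gamma receptors are cell-surface proteins that bind the constant part of IgG. FCGR1A encodes the high-affinity receptor CD64 and is a classical interferon-gamma target of monocytes. FCGR2A encodes an activating low-affinity receptor with a signaling motif (ITAM) in its own tail. FCGR2B encodes the inhibitory counterpart, whose ITIM motif recruits phosphatases, and FCGR3A and FCGR3B encode forms of CD16. FCER1G encodes the common gamma chain, an ITAM adaptor that carries CD64 and CD16A signals, and SYK is the kinase that docks on phosphorylated ITAMs. FCGRT encodes the heavy chain of the neonatal Fc receptor, which pairs with B2M inside the cell and returns IgG to the surface instead of letting it be degraded.

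Library totals lay between 15852346 and 18701195 counts, so that 3 counts corresponded to 0.160 to 0.194 CPM (counts relative to library size after TMM scaling, the unit used below unless FPKM is named). The macrophage markers CD14, ITGAM, CSF1R, SPI1 and MSR1 each had at least 1668 counts in every library, whereas CD68 had 0 to 5, MRC1 0 to 4 and CD163 27 to 74. The settings of read counting are not given, so the low counts of CD68 and MRC1 were not taken to show that the cells lack them. Of the 9 epithelial markers, EPCAM had 0 counts throughout, MUC1 had 28 to 65, KRT7 4 to 22 and the other 6 at most 10. MMP28 had 0 counts in all 12 TAM libraries. This checks nothing about its overexpression, which was in the cancer cells. There were 3 libraries that stood apart by a high sum of FPKM over all genes (counts scaled by gene length and library size): 414091 in OE-MMP28 replicate 3, 403651 in anti-IL-8 replicate 1 and 448764 in anti-VEGFA replicate 2, against 293252 to 362575 in the other 9. Mitochondrial genes held 17.8% of the counts of anti-VEGFA replicate 2, against 6.92% to 12.3% in the other libraries. OE-MMP28 replicate 3 moved several of the differences below, and the values without it are given there. These are bulk libraries, in which fewer cells of a type and less RNA per cell cannot be told apart.

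The 10 genes are spread unevenly over the genome (GRCh38, coordinates as in the deposited table). FCGR2A (chr1:161505430-161524013, plus strand), FCGR3A (chr1:161541759-161550737, minus strand), FCGR2C (chr1:161581339-161605662, plus strand), FCGR3B (chr1:161623196-161631963, minus strand) and FCGR2B (chr1:161663147-161678654, plus strand) form a cluster on chromosome 1, with FCER1G (chr1:161215234-161220699, plus strand) nearby. FCGR1A (chr1:149782671-149792518, plus strand) and FCGR1B (chr1:121087345-121096310, plus strand) lie elsewhere on the same chromosome. SYK is on chromosome 9 (chr9:90801787-90898549, plus strand) and FCGRT on chromosome 19 (chr19:49506816-49526333, plus strand). In the GENCODE 29 transcripts, 55.4% of the distinct 50-base windows of FCGR1A also occur in a transcript of another gene, mostly FCGR1B. The share was 44.8% for FCGR1B, 44.9% for FCGR2C, 27.4% for FCGR3A, 26.0% for FCGR3B, 16.7% for FCGR2A and 12.5% for FCGR2B. It was at most 0.520% for FCER1G, FCGRT and SYK. How reads from such copies were assigned is not given in the sources used here, so the split between FCGR1A and FCGR1B, between the FCGR2 genes and between FCGR3A and FCGR3B is uncertain. FCGR1A, FCGR1B and FCGR2B also overlap exons of genes on the opposite strand, and FCGR2A and FCGR2C share exonic bases with a read-through gene on the same strand.

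Of the 4 members that passed in some comparison, the promoters of the 3 Fc gamma receptors FCGR1A, FCGR2A and FCGR2B are shown, since FCGR1A and FCGR2A, the members that were higher with OE-MMP28, share a stretch of sequence. The promoter of the fourth, FCGRT, shared no run longer than 9 bases with that of another member. Those of the low-count FCGR3A and FCGR3B shared at least 40, the longest run that was searched for. Promoters were taken from RefSeq (GRCh38.p14), in which 8 of the 10 genes had an entry, all but FCGR1B and FCGR2C. Each line gives the 150 bases before the transcription start, plus strand, at chr1:149782544-149782693 for FCGR1A, chr1:161505307-161505456 for FCGR2A and chr1:161662993-161663142 for FCGR2B. Capitals mark the run shared by FCGR1A and FCGR2A and every match to the interferon-gamma activated (GAS) type of motif TTCNNNGAA.
FCGR1A: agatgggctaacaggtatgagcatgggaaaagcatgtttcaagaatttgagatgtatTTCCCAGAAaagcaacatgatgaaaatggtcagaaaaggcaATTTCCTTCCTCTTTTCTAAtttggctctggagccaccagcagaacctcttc
FCGR2A: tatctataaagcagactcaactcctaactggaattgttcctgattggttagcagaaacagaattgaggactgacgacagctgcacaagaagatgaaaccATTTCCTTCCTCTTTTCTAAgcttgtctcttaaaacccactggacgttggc
FCGR2B: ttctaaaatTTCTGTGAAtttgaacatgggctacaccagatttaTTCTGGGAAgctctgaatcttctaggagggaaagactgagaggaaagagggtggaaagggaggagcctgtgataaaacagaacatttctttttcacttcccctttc
The shared run, ATTTCCTTCCTCTTTTCTAA, is 20 bases long and starts at position -52 of FCGR1A and -51 of FCGR2A. Its presence in both was fixed by the search, which looked for the longest run that these 2 promoters share. Shared control of the 2 genes was not tested. Among all 35116 RefSeq promoter windows (250 bases before to 50 after each start, none of FCGR1B), the run occurs in these 2 only. It holds GAGGAA on the opposite strand, the core that the myeloid factor PU.1 is known to bind, which was found on either strand in 27.9% of all promoters. The GAS-type motif, which reads the same on both strands, was found at position -93 of FCGR1A and at -141 and -106 of FCGR2B, and in 7.66% of all promoters. The GAGGAA core was also found in a promoter window of FCGR2B, FCGR3A, SYK and FCGRT. These matches describe letters in a window and not bound sites.

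The levels of the members per length differed by orders of magnitude. FCER1G was the most abundant, with a median of 275.8 FPKM over the 12 libraries (range 222.9 to 384.5), above 99.2% of tested genes. FCGRT followed at 26.7 (17.5 to 34.9), SYK at 22.4 (19.0 to 23.9), FCGR1A at 12.7 (8.23 to 18.2) and FCGR2A at 10.3 (8.07 to 12.8). The inhibitory FCGR2B had a median of 2.48 FPKM (1.53 to 3.26) and FCGR1B 1.20 (0.795 to 1.82). FCGR3A, at 0.217 FPKM, had 5 to 17 counts per library, and FCGR2C, at 0.158 FPKM, had 2 to 40. FCGR3B had 0 counts in 10 libraries, 2 in control replicate 2 and 5 in anti-VEGFA replicate 2. In this order the ranges of FCGRT and SYK, of FCGR1A and FCGR2A, of FCGR2B and FCGR1B, and of FCGR3A and FCGR2C overlapped, and the remaining neighbours were separate except at FCGR3B, which overlapped FCGR2C and FCGR3A. By median level, the Fc gamma receptor transcripts were mainly FCGR1A and FCGR2A beside the abundant gamma chain, and the neonatal receptor FCGRT lay above both. The CD16 transcripts were near the counting limit. FCGR3B did not pass edgeR's filter on low counts, and 9 members were tested among 16046 genes.

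**Figure D1:**
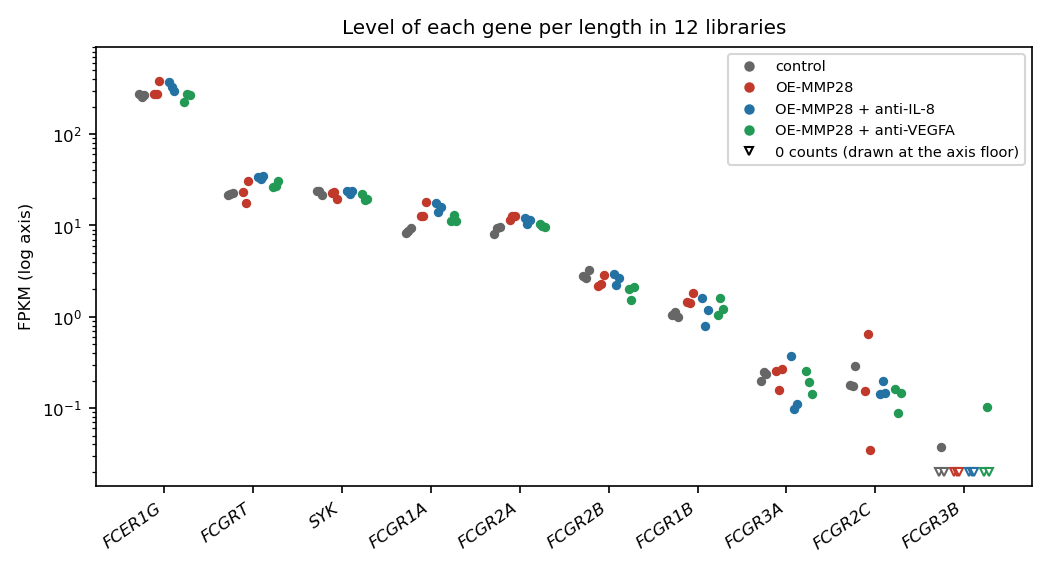
FPKM of each of the 10 genes (log axis) in the 12 libraries, colored by group, with libraries at 0 counts drawn as open triangles at the axis floor. FCER1G lies at 222.9 FPKM or higher in every library, while FCGR3A and FCGR2C stay under 1 and FCGR3B has 0 counts in 10 libraries.

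The first comparison asked what coculture with OE-MMP28 cells did before any antibody was added. FCGR1A was at 24.9, 26.4 and 28.9 CPM in the control libraries (replicates 1 to 3) and at 38.2, 38.4 and 55.4 with OE-MMP28. Every OE-MMP28 library lay above every control library, and replicate 3 was the highest. FCGR1A rose by 0.72 on the log2 scale (SE 0.15, adjusted p = 0.0106). Unless another test is named, adjusted p-values came from the quasi-likelihood test of edgeR with Benjamini-Hochberg adjustment over all tested genes. The call did not hold without control replicate 1 (0.67, adjusted p = 0.0776) or control replicate 2 (0.71, adjusted p = 0.0638). FCGR2A was at 43.2, 50.4 and 52.3 CPM in control and at 61.6, 68.7 and 68.2 with OE-MMP28, again without overlap. Its change of 0.44 (SE 0.12) passed narrowly, with an adjusted p of 0.0495 in the main analysis and from 0.0145 to 0.287 over 25 alternatives, of which 8 were below 0.05. Among those above it was a fit without control replicate 1 (0.37, adjusted p = 0.287), and leaving out control replicate 2 gave 0.150. These were the 2 of 9 tested members that passed, against 3.16% of all tested genes in either direction and 0.523% that were higher.

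The other members gave smaller or less certain differences. FCGR1B, the near-identical copy of FCGR1A, was at 3.43 to 3.81 CPM in control and 4.85 to 6.23 with OE-MMP28 (log2 difference 0.56, SE 0.24, adjusted p = 0.276). FCER1G was at 268.0, 246.3 and 263.8 CPM in control and at 270.0, 268.6 and 375.5 with OE-MMP28, where its higher mean came from replicate 3 (0.23, SE 0.15, adjusted p = 0.512, and 0.060 without that library). FCGR2B was at 18.9, 18.1 and 22.1 CPM in control and 14.5, 15.3 and 19.5 with OE-MMP28, which overlapped (-0.26, SE 0.17, adjusted p = 0.519). SYK differed by -0.07 (SE 0.12) and FCGRT by 0.10 (SE 0.15). In all, 4 members lay wholly above control (FCGR1A, FCGR1B, FCGR2A and FCER1G), against 9.63% of all genes, and none lay wholly below. The median log2 difference was 0.23 over the 9 members and 0.02 over all tested genes.

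Other transcripts moved with the same groups. The summed level of 10 macrophage markers was 1861 to 2030 CPM in control and 2033 to 3035 with OE-MMP28. The higher sum was mainly that of CD14, the only one of 8 tested markers that passed (750.6 to 1308 CPM), while the median log2 difference of the 8 was 0.05 and ITGAM (-0.17), CSF1R (-0.16), AIF1 (-0.47) and MSR1 (-0.05) were below 0. The summed level of 10 interferon-stimulated genes was 2202 to 3009 in control and 458 to 586 with OE-MMP28. All 10 interferon-stimulated genes were lower with OE-MMP28 (median log2 change -2.40), whereas FCGR1A, known as an interferon-gamma target, was higher. The epithelial marker MUC1 was at a mean of 3.61 CPM in control and 1.80 with OE-MMP28 (-0.96, adjusted p = 0.0341). The part of these markers in the receptor differences was not tested.

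**Figure D2:**
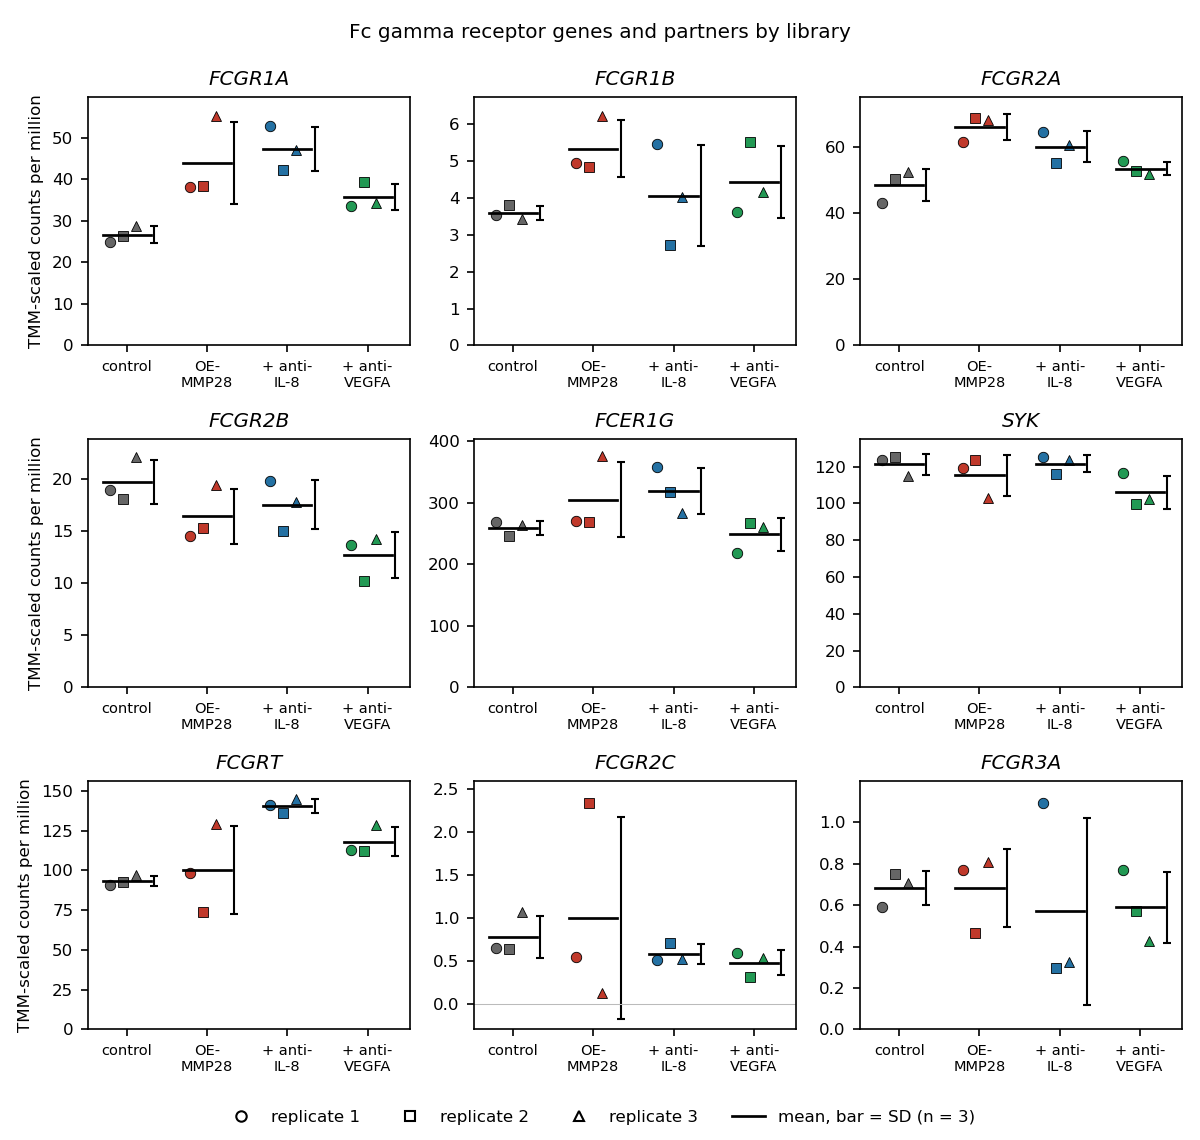
CPM (TMM-scaled) of the 9 tested members in every library, with replicate number as the symbol, the group mean as a line and the SD as a bar (n = 3 per group). FCGR1A and FCGR2A lie higher in all 3 OE-MMP28 libraries than in any control library, and FCGRT is highest in the 3 anti-IL-8 libraries.

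With anti-IL-8 added, FCGRT, the IgG recycling receptor, was the 1 of 9 tested members whose libraries did not overlap those of OE-MMP28. FCGRT was at 98.2, 73.8 and 129.0 CPM with OE-MMP28 and at 141.0, 136.0 and 144.6 with anti-IL-8. All anti-IL-8 libraries lay above all OE-MMP28 libraries, as in 13.7% of all tested genes, a larger share than 1 of 9 members. The OE-MMP28 libraries themselves were widely spread. The log2 difference was 0.49 (SE 0.15, 95% interval 0.16 to 0.81, adjusted p = 0.0702), so it did not pass. The size depended on the OE-MMP28 libraries: without replicate 2 it was 0.31 (adjusted p = 0.310), and without replicate 3 it was 0.74 and passed (adjusted p = 0.00466). It also passed without anti-VEGFA replicate 2 (0.52, adjusted p = 0.0491). DESeq2 also placed it past the threshold (0.50, adjusted p = 0.0276). Across 25 alternatives the difference was always positive, and 8 gave an adjusted p below 0.05. Against the control libraries, at 90.8, 92.4 and 96.9 CPM, FCGRT rose with anti-IL-8 by 0.59 (SE 0.15, adjusted p = 0.0144), a call that was lost without control replicate 1 (0.0531), control replicate 2 (0.0578) or anti-IL-8 replicate 3 (0.0525). The summed level of 5 myeloid granule markers differed in the same direction, at 60.3 to 74.6 CPM in control and 93.9 to 114.5 with anti-IL-8. ELANE, AZU1 and PRTN3, 3 of the 4 tested, passed against control, beside 20.7% of all genes (median log2 difference of the 4, 0.91). The fourth, CTSG, had means of 26.7 CPM with anti-IL-8 and 26.9 in control. In OE-MMP28 replicates 1 to 3 the sum of the 5 markers was 73.0, 47.9 and 113.1 CPM, in the same order as FCGRT. With anti-VEGFA that sum was 80.9 to 106.7. The part of these markers in the FCGRT difference was not tested.

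None of the 9 members passed with anti-IL-8 against OE-MMP28, where 0% of all genes passed by edgeR, while DESeq2 called 2122 genes of 16046 and 1 member, FCGRT. At an unadjusted p under 0.05, 4700 genes (29.3%) and the same member passed by edgeR. FCGR1A was at 52.8, 42.2 and 47.1 CPM with anti-IL-8, within the range of OE-MMP28 (0.11, 95% interval -0.21 to 0.42), and stayed above control by 0.82 (SE 0.15, adjusted p = 0.0019). FCGR2A was at 64.5, 55.3 and 60.8 CPM, overlapping OE-MMP28 (-0.14, -0.39 to 0.11). FCGR2B, at 19.8, 15.0 and 17.8 CPM, FCER1G, at 357.7, 317.8 and 282.6, and SYK, at 125.1, 116.1 and 123.6, overlapped it too. Without OE-MMP28 replicate 3 the differences of FCGR1A, FCGR2B and FCER1G were 0.34, 0.26 and 0.27, and none passed. Against control, 2 of 9 members passed with anti-IL-8, FCGR1A and FCGRT, beside 20.7% of all tested genes.

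With anti-VEGFA added, FCGR2A, FCGR2B and FCER1G lay below all OE-MMP28 libraries, without any of them passing. FCGR2A was at 55.7, 52.9 and 51.9 CPM, below all OE-MMP28 libraries (-0.31, SE 0.12, adjusted p = 0.187). FCGR2B was at 13.7, 10.2 and 14.2 CPM, also below all of them (-0.36, SE 0.17, adjusted p = 0.251). FCER1G was at 218.3, 266.6 and 260.2 CPM (-0.29, SE 0.15, adjusted p = 0.284), likewise wholly below. FCGR1A, at 33.7, 39.4 and 34.4 CPM, overlapped OE-MMP28 (-0.29, SE 0.15, adjusted p = 0.304), as did SYK (116.3, 99.6 and 102.5 CPM, -0.12, SE 0.12). These 3 members below all OE-MMP28 libraries compare with 8.97% of all genes. The adjusted calls were 0 of 9 beside 0.343% of all genes, and at an unadjusted p under 0.05 they were FCGR2A and FCGR2B beside 18.8%. The median log2 difference was -0.29 over the members, against -0.0014 over all tested genes. Without OE-MMP28 replicate 3 these differences were nearer 0, at -0.083 for FCGR1A, -0.10 for FCER1G, -0.22 for FCGR2B and -0.27 for FCGR2A. Without anti-VEGFA replicate 2, that of FCGR2B was -0.23.

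The FCGRT difference with anti-VEGFA turned on which OE-MMP28 libraries were used. FCGRT was at 113.1, 112.4 and 128.5 CPM, above OE-MMP28 replicates 1 and 2 and below replicate 3 (0.23, SE 0.15, adjusted p = 0.418). Without OE-MMP28 replicate 2 the difference was 0.053 (adjusted p = 0.911), and without replicate 3 it was 0.47 and passed (adjusted p = 0.0371). With the 3 libraries of high summed FPKM left out together, which were chosen after their values were seen, no member passed in this comparison. The FCGRT difference was then 0.48, the highest over 25 alternatives. Against control, FCGR2B fell by 0.62 on the log2 scale (SE 0.17, adjusted p = 0.0234), the only one of the 9 that passed, beside 11% of all genes. That call was lost without control replicate 1 (0.0596), control replicate 2 (0.0538), control replicate 3 (0.102) or anti-VEGFA replicate 2 (0.0951). FCGR1A stayed at 0.42 above control (SE 0.15, adjusted p = 0.0824).

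**Figure D3:**
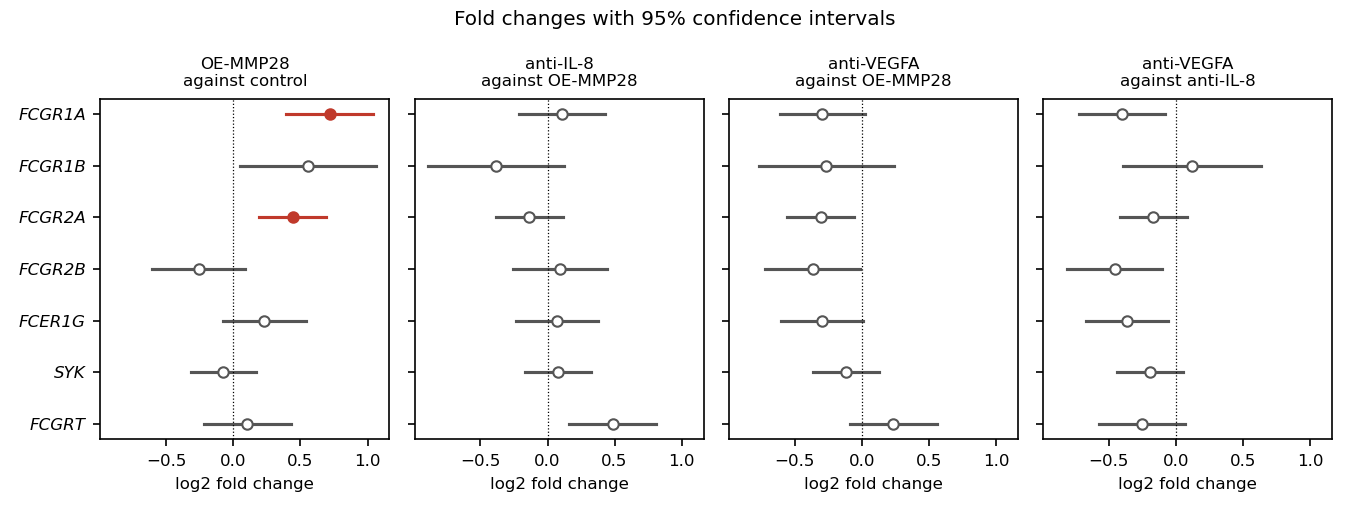
Log2 fold change (point) and 95% confidence interval (line) of 7 members in 4 comparisons, filled red where the adjusted p was under 0.05. Only FCGR1A and FCGR2A in OE-MMP28 against control are filled, and FCGRT is the only member to the right of 0 in both antibody comparisons with an interval away from 0 in one of them.

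Both antibody groups were also set together against OE-MMP28, as the mean of both, which uses 6 libraries against 3. This mean can differ through 1 group alone, and the separate comparisons share the OE-MMP28 libraries, so a change shared by both antibodies was not tested as such. No member passed (0 of 9, beside 0.00623% of all genes, which is 1 gene), and at an unadjusted p under 0.05 FCGRT and FCGR2A did, beside 27.1% of all genes. FCGRT had a log2 difference of 0.36 (95% interval 0.08 to 0.64, adjusted p = 0.111), and FCGR2A of -0.22 (-0.44 to -0.01, adjusted p = 0.173). In both genes the 6 antibody libraries overlapped OE-MMP28. FCGRT was at 0.18 without OE-MMP28 replicate 2 (adjusted p = 0.566), and it passed without OE-MMP28 replicate 3 (0.60, adjusted p = 0.00631) and with the 3 libraries of high summed FPKM left out (0.60, adjusted p = 0.00868). FCGR2C, at 2 to 40 counts per library, also passed without OE-MMP28 replicate 3 (-1.24, adjusted p = 0.0398), when OE-MMP28 was left with 10 and 40 counts. FCGR1A (-0.09), FCGR2B (-0.14), FCER1G (-0.11) and SYK (-0.02) had intervals that included 0, and FCGR1A, FCGR2B and FCER1G changed sign without OE-MMP28 replicate 3 (0.13, 0.02 and 0.09).

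Set directly against each other, the antibody groups differed in none of the 9 members at the adjusted threshold, which 0.199% of all genes passed. With anti-VEGFA, FCGR1A (-0.40, SE 0.15, adjusted p = 0.240), FCGR2B (-0.46, SE 0.17, adjusted p = 0.228), FCER1G (-0.36, SE 0.15, adjusted p = 0.263) and FCGRT (-0.25, SE 0.15, adjusted p = 0.445) were lower in every library than with anti-IL-8. Such separation was seen in 9.64% of all genes. FCGR1A, FCGR2B and FCER1G passed an unadjusted p under 0.05, as did 15% of all genes. For FCGRT the 95% interval of this difference was -0.58 to 0.07.

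The balance of activating to inhibitory receptor was described by the FPKM ratio of FCGR2A to FCGR2B. It was 2.86, 3.49 and 2.97 in control, 5.30, 5.62 and 4.39 in OE-MMP28, 4.08, 4.60 and 4.28 under anti-IL-8, and 5.09, 6.48 and 4.57 under anti-VEGFA. Every OE-MMP28 library and every antibody library lay above the 3 control libraries. The OE-MMP28 ratio was 0.71 higher than control on the log2 scale, with an exact two-sided permutation p of 0.1, the smallest that 3 against 3 libraries can give (0.333 adjusted over 5 comparisons). Both antibody groups together differed from OE-MMP28 by -0.08 (exact permutation p = 0.607, 84 splits, adjusted p = 0.759). Neither antibody alone gave a p below 0.2 against OE-MMP28. The sign with anti-VEGFA (0.07) turned without OE-MMP28 replicate 3 (-0.04) or anti-VEGFA replicate 2 (-0.07).

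**Figure D4:**
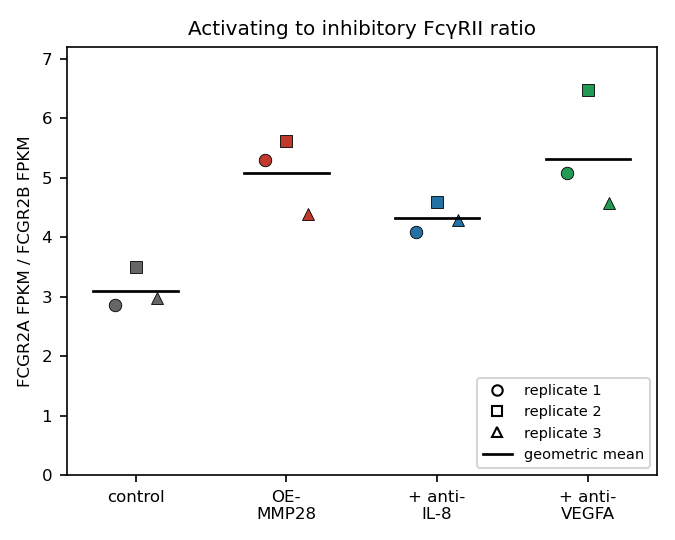
Ratio of FCGR2A to FCGR2B in FPKM in every library, with the geometric mean of each group (n = 3) as a line. The control libraries lie between 2.86 and 3.49 and the other 9 between 4.08 and 6.48.

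The rest of the Fc receptor pathway was read from lists of 112 genes. Of these, 103 were tested, and 4 passed between OE-MMP28 and control, a share near the 3.16% of all genes. Among other Fc receptors and IgG-handling partners, 2 of 10 tested genes passed, both lower, and the median log2 difference of the 10 was -0.35. TRIM21, a cytosolic IgG receptor that is itself interferon-inducible, fell by 1.40 on the log2 scale (SE 0.15, adjusted p = 6.96e-06). PIGR, the polymeric immunoglobulin receptor, fell by 0.79 (SE 0.16, adjusted p = 0.00817). B2M, the partner of FCGRT, was at a mean of 4270 CPM with OE-MMP28 and 5193 in control (-0.28, adjusted p = 0.409). INPP5D, the SHIP1 lipid phosphatase that FCGR2B recruits, fell by 0.52 (SE 0.14, adjusted p = 0.0485), 1 of 18 inhibitory phosphatases and ITIM receptors. MARCKS, an actin-binding kinase substrate, rose by 0.44 (SE 0.11, adjusted p = 0.0325), 1 of 27 genes of the actin machinery. None of 11 proximal kinases and ITAM adaptors, 32 downstream adaptors and enzymes or 5 NADPH oxidase subunits passed. Examples from the last 2 lists were PLA2G4A (-0.47, adjusted p = 0.127) and CYBB (0.42, adjusted p = 0.397).

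Neither antibody moved any of these 103 genes past the adjusted threshold against OE-MMP28 by edgeR, although 40 passed an unadjusted p under 0.05 under anti-IL-8, beside 29.3% of all genes, and 13 under anti-VEGFA, beside 18.8%. DESeq2 called 19 with anti-IL-8, 1 with anti-VEGFA and 10 in the mean of both, where it called 2122, 429 and 1510 of all 16046 genes. Without OE-MMP28 replicate 3, edgeR called 44, 10 and 33, beside 4203, 1498 and 3545 of 16530 genes. With anti-IL-8, genes among the smallest p-values of their lists were PTPN11, the SHP2 phosphatase (-0.63), PLA2G4A, the cytosolic phospholipase A (-0.76), CRK (-0.51), LIMK1, a kinase of cofilin (0.55), and WASL (-0.49), each at an adjusted p of 0.0627, and FCER2, the low-affinity IgE receptor, was at 0.58 (adjusted p = 0.0652). Under anti-VEGFA, ACTR3 (-0.42, adjusted p = 0.112) and INPPL1, a SHIP-type lipid phosphatase (0.39, adjusted p = 0.124), did not pass. Those with the smallest p in the mean of both groups were ACTR3, a subunit of the actin-branching complex (-0.43, adjusted p = 0.0652), the kinase subunit PIK3CB (-0.46, adjusted p = 0.0652), PLA2G4A (-0.51, adjusted p = 0.0652) and PTPN11 (-0.44, adjusted p = 0.0652). The oxidase subunits CYBB (-0.53, adjusted p = 0.0944) and CYBA (0.51, adjusted p = 0.194) had opposite signs. Of the ITAM partners, TYROBP was at 197.1 CPM with OE-MMP28 and 259.0 over both antibody groups (0.39, adjusted p = 0.142), and the kinase LYN at 288.9 and 245.8 (-0.23, adjusted p = 0.153). Against control, anti-IL-8 gave 35 calls among the 103, beside 20.7% of all genes, and anti-VEGFA 10, beside 11%. Calls shared by name in both included lower TRIM21 (-1.13 and -1.48), PIGR (-0.62 and -0.96), PIK3CB (-0.87 and -0.72), PLA2G4A (-1.23 and -0.73) and MYO10 (-0.64 and -0.43), in comparisons that use the same control libraries.

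The genes whose pattern over the 12 libraries was most like that of a member were found by the root mean square difference of centred log2 CPM among 13066 protein-coding genes. For FCGRT they were KCNN4 (0.058), ATAD3A (0.065) and SYNGR2 (0.070), against a median of 0.404 over all candidates. KCNN4, a calcium-activated potassium channel, was at 414.4 ± 1.5 CPM in control, 431.3 ± 126 with OE-MMP28, 631.1 ± 39.2 under anti-IL-8 and 531.5 ± 17.9 under anti-VEGFA (SD, n = 3). For FCGR1A they were MGST3 (0.122), COX7A2L (0.124) and FBP1 (0.127), for FCGR2A WDR12 (0.085), PABPC4 (0.097) and TRPM8 (0.099), and for FCGR2B FCRLA (0.131), IL1RN and TMEM246 (0.140 each). FCRLA, an Fc receptor-like gene, was at 227.6 ± 8.85 CPM in control and 154.6 ± 7.44 with anti-VEGFA.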

How the data were processed

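The series holds 12 RNA-seq libraries of THP-1 cells in 4 groups of 3, assigned from the sample labels. Per the submitters' processing notes, reads were aligned with HISAT2 2.0.5 and counted with featureCounts 1.5.0-p3, whose settings are not given in the sources used here. The deposited counts per gene, for 58735 genes, are the authors' raw counts, and the FPKM values they deposited are on a linear scale. The table also holds the authors' group means, log2 fold changes and p-values, which were not used. Gene IDs and coordinates matched GENCODE 29 for 58690 genes. The members, gene lists and tests were chosen with earlier results of these data known.

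Counts were analysed in R 4.3.3 with edgeR 4.0.16. Its filterByExpr kept 16046 genes, among them 9 of 10 members. Libraries were scaled by TMM, and a quasi-likelihood fit of all 12 libraries with 1 coefficient per group gave 7 comparisons, with Benjamini-Hochberg adjustment within each at 0.05. Log2 fold changes use a prior count of 2. The study names limma at an unadjusted p under 0.05. Here limma 3.58.1 was an alternative because the values are counts. Levels were compared between genes only as FPKM, and ratios were tested by an exact permutation test. Totals of 15852346 to 18701195 counts set the precision, and 3 counts were taken as the floor.

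All 10 members are described. Of each pathway list, up to 3 genes with the smallest adjusted p past the threshold are named, or up to 2 with the smallest p where none passed. For each member that passed in a comparison, the 3 most similar protein-coding genes are named. B2M was named outside that rule, as the partner of FCGRT. Alternatives were DESeq2 1.42.0, limma's voom, limma on log2(FPKM + 1) and log2(FPKM + 0.1), other scalings and filters, only the groups compared, the replicate block, near-identical copies summed and each library left out. A mitochondrial covariate, a summed-FPKM covariate and leaving out 3 libraries were chosen after seeing the data. The tests were tested on simulated data. Promoters were read in Python from RefSeq. Some values of single pathway genes are not reported here.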

Additional observations from a re-analysis of the deposited data

How the results depend on the processing

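Precision was limited by 3 libraries per group and, for FCGR2C, FCGR3A and FCGR3B, by counts near the floor. The causes of the changes below were not tested. Between OE-MMP28 and control, 1 member (FCGR1A) passed in place of 2 with library totals, DESeq2 size factors, no filter, only the groups compared, the mitochondrial covariate or the 3 libraries left out. Leaving out single libraries gave 0 to 2 members and 1 to 4 pathway genes. With anti-IL-8 against OE-MMP28, 1 member (FCGRT) passed in place of 0 with DESeq2, no filter, the unadjusted threshold, either covariate or the 3 libraries left out, and 0 to 1 with single libraries left out. For anti-VEGFA the unadjusted threshold gave 2 and single libraries 0 to 1. For the mean of both it gave 2, the 3 libraries left out 1, and single libraries 0 to 2. For anti-VEGFA against anti-IL-8 it gave 3. Against control, a fit of only the groups compared gave 4 members for anti-IL-8 and 3 for anti-VEGFA, where the unadjusted threshold gave 3. Single libraries gave 1 to 4 and 0 to 3. DESeq2 called 19, 1, 10 and 2 pathway genes with anti-IL-8, anti-VEGFA, the mean of both and between the antibodies. Over single libraries left out, pathway calls ran from 0 to 44, 0 to 10 and 0 to 33 in the first 3 of these, and from 11 to 40 and 5 to 21 for anti-IL-8 and anti-VEGFA against control.

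With the replicate block, FCGR2A lost its call (adjusted p = 0.0577 by edgeR), which left 1 member between OE-MMP28 and control, FCGRT gained one with anti-IL-8 (0.0482), which made 1, and the other counts of members were the same. The shared replicate numbers were not taken as pairing, since the deviations of same-numbered libraries correlated at -0.160 to 0.237 over 18 pairs, with 4 above 0.1.

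Signs turned in log2 differences that had not passed, small ones except for FCGR2C and FCGR3A, whose counts were low. Between OE-MMP28 and control these were FCGR2C (-0.37 by voom, -0.086 on log2(FPKM + 0.1)), FCGR3A (0.00022 with no filter, 0.0030 with only the groups compared), and, with the 3 libraries left out, FCGRT (-0.12) and SYK (0.0017). The 3 libraries also turned SYK with anti-IL-8 (-0.011), FCGR1A (0.027) and FCGR2B (0.021) in the mean of both, and FCGR1B (-0.085) and SYK (-0.0095) with anti-IL-8 against control. Summing copies turned FCGR3A with anti-VEGFA (0.012), and the mitochondrial covariate FCGR1B between the antibodies (-0.0047). Against control with anti-IL-8, SYK turned with library totals (-0.074), no filter (-0.0044) and at least 10 counts (-0.010), and the FPKM covariate turned FCGR1B (-0.080) and FCGR2C (0.043). With single libraries left out, ranges that crossed 0 were, for OE-MMP28 against control, FCGR2C -0.96 to 0.80, FCGR3A -0.11 to 0.18, FCGRT -0.11 to 0.28 and SYK -0.13 to 0.0092. With anti-IL-8 they were FCER1G -0.014 to 0.27, FCGR2C -1.13 to 0.60 and FCGR3A -0.88 to 0.051, and under anti-VEGFA FCGR2C -1.36 to 0.38 and the FCGR2A to FCGR2B ratio -0.074 to 0.18. In the mean of both they were FCER1G -0.20 to 0.085, FCGR1A -0.19 to 0.13, FCGR2B -0.22 to 0.022, FCGR2C -1.24 to 0.49 and SYK -0.076 to 0.032. Between the antibodies they were FCGR1B -0.10 to 0.36 and FCGR3A -0.23 to 0.71. Against control they were FCGR1B -0.054 to 0.39, FCGR3A -0.88 to 0.049 and SYK -0.034 to 0.040 with anti-IL-8, and FCER1G -0.10 to 0.023 with anti-VEGFA.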
